A study of Homo sapiens with 8 samples.

Results

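Expression of 46 genes of mitosis and of the G2/M transition was followed in KYSE150 cells, an established human esophageal squamous cell carcinoma line, after knockdown of the BOLA3-L isoform by RNA interference. The genes were chosen by name (mitotic kinases, kinesins, kinetochore and spindle checkpoint genes, cyclins and their partners) from the gene names in the deposited count table, and all 46 are among its 15852 genes. Earlier results of these data were known when they were chosen. Polyadenylated RNA was sequenced from 4 libraries carrying an shRNA against BOLA3-L (genotype ShBOLA3-L, BOLA3-L knockdown replicates 1 to 4) and from 4 control libraries (genotype Control, replicates 1 to 4), all with no further treatment. The labels do not say whether the cells were 1 clone or a pool, or what the control cells carried, nor whether the libraries of a group came from separate cultures, so the p-values measure only the spread between these libraries, which may be technical.

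Entry into mitosis is driven by the kinase CDK1 with its cyclins, and its timing is set by the phosphatase CDC25C and by the polo-like and aurora kinases. Kinesins and microtubule-binding proteins then build the spindle, the kinetochore ties chromosomes to it, and the spindle checkpoint holds back CDC20 and the anaphase-promoting complex until every chromosome is attached. Most of these genes are transcribed in G2 and mitosis under FOXM1 and the MuvB complex with B-MYB, and their level in bulk RNA is commonly read as a sign of how many cells are dividing. In bulk RNA, fewer cells in mitosis and less RNA per mitotic cell cannot be told apart.

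The promoters of these genes share sequence elements that the choice by name did not use. A CHR element (cell cycle genes homology region, spelled TTTGAA or TTCGAA here) is the contact point of the MuvB complex, and the CCAAT box is that of the factor NF-Y. RefSeq promoter windows (GRCh38.p14, 250 bases before to 50 after the annotated start, the first listed start per gene) were at hand for 39 of the 46 genes (all but AURKA, TTK, BUB3, UBE2C, BIRC5, TPX2 and FOXM1), and both strands were searched. The windows below belong to the 3 genes with the smallest p-values among those that fell and have a window (MKI67, PLK1 and KIF20A) and to 3 genes not called (the cyclins CCNB1 and CCNB2, and TOP2A), with matches to either CHR spelling or to the CCAAT box in capitals, written 5′ to 3′ on the gene's strand, so that a match on the other strand reads TTCAAA or ATTGG.
MKI67: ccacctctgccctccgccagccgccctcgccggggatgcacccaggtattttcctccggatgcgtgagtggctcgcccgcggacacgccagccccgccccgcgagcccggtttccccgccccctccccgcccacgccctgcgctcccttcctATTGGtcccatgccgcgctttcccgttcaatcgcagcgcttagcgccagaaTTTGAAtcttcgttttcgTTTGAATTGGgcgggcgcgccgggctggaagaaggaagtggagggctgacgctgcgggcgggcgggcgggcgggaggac
PLK1: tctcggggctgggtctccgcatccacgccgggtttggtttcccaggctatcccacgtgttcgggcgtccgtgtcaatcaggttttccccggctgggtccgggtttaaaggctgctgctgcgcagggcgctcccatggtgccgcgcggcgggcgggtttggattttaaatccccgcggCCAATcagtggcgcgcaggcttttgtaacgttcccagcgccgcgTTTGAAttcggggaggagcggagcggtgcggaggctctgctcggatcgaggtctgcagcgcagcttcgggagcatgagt
KIF20A: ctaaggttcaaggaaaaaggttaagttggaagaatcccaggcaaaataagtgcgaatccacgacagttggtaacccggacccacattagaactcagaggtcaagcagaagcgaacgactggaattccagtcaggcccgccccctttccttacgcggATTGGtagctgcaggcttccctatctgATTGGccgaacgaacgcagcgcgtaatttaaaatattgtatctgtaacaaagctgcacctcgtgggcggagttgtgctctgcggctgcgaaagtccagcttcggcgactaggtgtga
CCNB1: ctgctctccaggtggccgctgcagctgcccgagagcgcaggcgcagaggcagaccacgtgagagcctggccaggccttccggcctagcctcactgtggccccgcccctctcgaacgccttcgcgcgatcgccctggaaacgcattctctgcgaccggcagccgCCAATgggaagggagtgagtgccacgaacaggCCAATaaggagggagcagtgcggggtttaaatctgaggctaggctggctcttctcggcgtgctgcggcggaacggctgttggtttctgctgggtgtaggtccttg
CCNB2: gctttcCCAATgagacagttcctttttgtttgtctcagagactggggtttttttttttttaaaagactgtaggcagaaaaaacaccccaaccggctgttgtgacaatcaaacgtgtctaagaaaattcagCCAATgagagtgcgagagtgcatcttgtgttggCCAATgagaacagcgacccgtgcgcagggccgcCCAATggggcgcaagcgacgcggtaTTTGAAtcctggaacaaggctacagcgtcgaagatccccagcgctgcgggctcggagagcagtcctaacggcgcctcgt
TOP2A: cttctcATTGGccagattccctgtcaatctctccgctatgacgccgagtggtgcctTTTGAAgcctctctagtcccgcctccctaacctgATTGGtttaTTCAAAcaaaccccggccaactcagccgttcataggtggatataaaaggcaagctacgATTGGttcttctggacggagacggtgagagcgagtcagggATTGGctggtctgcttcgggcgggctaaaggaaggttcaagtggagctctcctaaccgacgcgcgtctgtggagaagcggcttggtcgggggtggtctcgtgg
The windows lie at chr10:128126374-128126673 (minus strand) for MKI67, chr16:23678639-23678938 (plus strand) for PLK1, chr5:138178862-138179161 (plus strand) for KIF20A, chr5:69166900-69167199 (plus strand) for CCNB1, chr15:59104896-59105195 (plus strand) for CCNB2 and chr17:40417847-40418146 (minus strand) for TOP2A. In PLK1, CCNB2 and MKI67 a TTTGAA begins 29 bases before the start. In MKI67 its last base is also the first of a CCAAT box on the other strand. KIF20A and CCNB1 hold CCAAT boxes and neither CHR spelling in these windows.

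Of the 39 promoters, 30 (76.9%) held TTTGAA or TTCGAA, against 1071 of 9762 promoters of tested genes (11.0%). TTTGAA alone was in 29 of the 39 (74.4%) and TTCGAA in 2 (5.13%), against 9.53% and 1.68% of the promoters of tested genes. Within 50 bases of the start, either hexamer was in 25 of the 39 (64.1%), against 3.12%. A CCAAT box was in 32 of the 39 (82.1%), against 36.9%, and 26 (66.7%) held both kinds of element, against 4.77%. Among genes that fell after knockdown 10 of 15 held a CHR hexamer (66.7%), and among those not called 20 of 24 (83.3%), and this difference was not tested. A match is only a run of letters in this window, and a window without one says nothing about the factor.

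**Figure D1:**
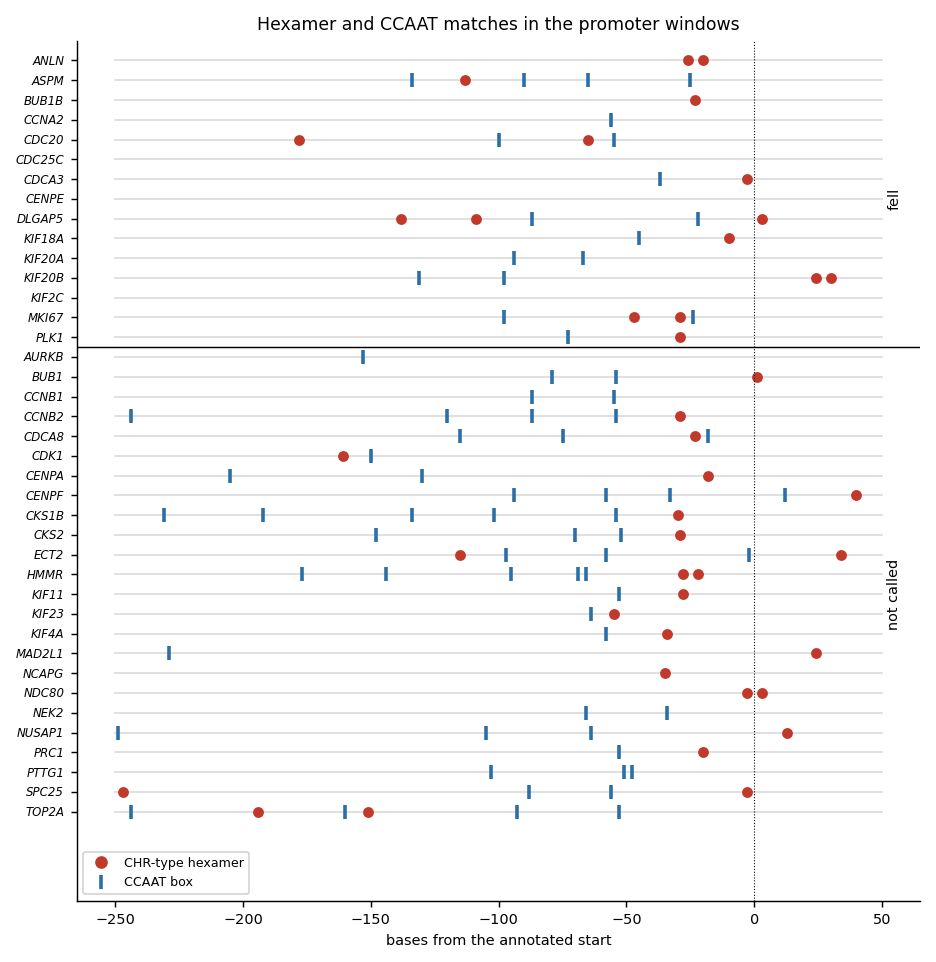
Matches to the CHR hexamers (TTTGAA or TTCGAA, circles) and to the CCAAT box (bars) on either strand in 39 promoter windows, by distance in bases from the annotated start, with the 15 genes that fell above and the 24 not called below. Circles gather within 50 bases of the start in 25 of the 39 windows, in both groups of genes.

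BOLA3 itself, the target of the shRNA, was at 6.06, 6.64, 6.33 and 7.29 CPM (counts scaled to library size) in knockdown replicates 1 to 4, against 21.6, 19.1, 20.5 and 21.8 CPM in control replicates 1 to 4, a log2 change of -1.66 (SE 0.0821, edgeR adjusted p 6.9e-11; exact two-sided permutation p = 0.0286, the smallest that 70 assignments allow). The counts are per gene and do not separate its isoforms. Library totals ranged from 31178036 to 35147860 counts, at which 3 counts are 0.0851 to 0.0969 CPM. Knockdown replicate 1 stood apart from knockdown replicates 2 to 4 on the second principal component of all tested genes (-20.1 against 4.81 to 10.1, with 14.4% of the variance), and the counts of calls and the log2 change of each of the 46 genes shown library by library are given with and without it. The 5 epithelial markers read summed to 2175 to 2438 CPM in knockdown libraries and 3655 to 3679 CPM in controls. Of these, the squamous markers KRT5, KRT14, KRT6A and TP63 were lower in every knockdown library than in every control. KRT5 was at 1752 to 2023 CPM in knockdown libraries and 3117 to 3141 CPM in controls. The epithelial marker EPCAM was higher, at 146 to 157 CPM in knockdown libraries and 131 to 133 CPM in controls. Of leukocyte markers, CD68 was at 73.8 to 79.4 CPM in knockdown libraries and 77.5 to 84.3 CPM in controls, and PTPRC, CD3E and LYZ were at 0.152 CPM or less in every library. Of 4 endothelial markers, which summed to 1.87 to 2.44 CPM in knockdown libraries and 0.88 to 1.82 CPM in controls, CDH5 was at 1.49 to 1.91 CPM in knockdown libraries and 0.607 to 1.23 CPM in controls and PECAM1 at 0 to 0.0317 CPM in all. The 6 fibroblast markers, most of it COL1A1, summed to 4.25 to 7.0 CPM in knockdown libraries and 9.85 to 14.7 CPM in controls. The part of these shifts in the results was not tested.

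After BOLA3-L knockdown 17 mitosis and G2/M genes fell by a modest amount, among them the proliferation antigen MKI67, the kinases PLK1 and AURKA and the kinesins KIF18A and KIF20A. Of the 46 genes, all of which had enough counts to be tested, 17 (37.0%) fell and 0 rose, with a median log2 change of -0.07, while over all 11841 tested genes 15.6% fell and 15.0% rose and the median was 0.001. A gene counts as called at a Benjamini-Hochberg adjusted p under 0.05 in edgeR's quasi-likelihood test, adjusted over all tested genes. No member rose at an unadjusted p under 0.05 (0 genes) or in DESeq2 (0 genes). Members are well expressed, the lowest averaging 19.1 CPM over the 8 libraries, and among the 8110 genes at or above that level 17.8% fell. The 17 genes that fell stood at 82.8% to 92.8% of the control mean, and 0 members changed 2-fold.

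In 12 members (26.1%) all 4 knockdown libraries lay below all 4 controls, against 15.6% of all tested genes, and in 0 members did they all lie above, against 14.6%. Those 12 were CCNA2, CDC25C, PLK1, AURKA, CDC20, BUB3, KIF20A, KIF2C, TPX2, DLGAP5, MKI67 and CDCA3, all of them called except BUB3. Summed over the 46 genes, the level was 9428, 8933, 8919 and 8840.0 CPM in knockdown replicates 1 to 4, against 9625, 9809, 9524 and 9597 CPM in control replicates 1 to 4. Knockdown replicate 1 was the knockdown library nearest to the controls in this sum.

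**Figure D2:**
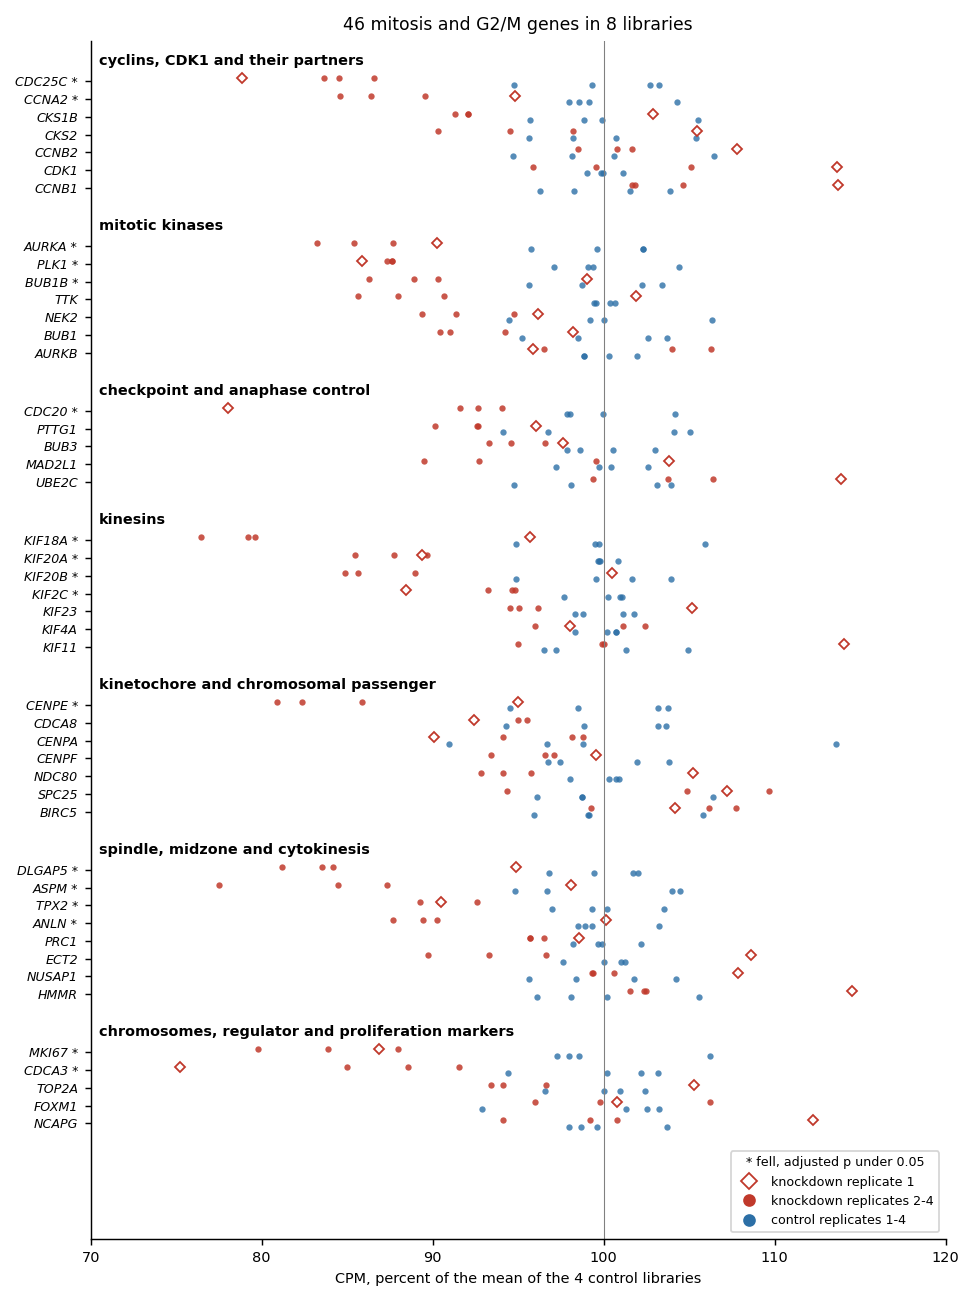
Level of each of the 46 genes in every library, as a percent of the mean of the 4 control libraries, grouped by role. Red circles are knockdown replicates 2 to 4, open diamonds knockdown replicate 1 and blue circles the controls, and asterisks mark the 17 genes that fell. KIF18A has the lowest knockdown mean, 82.8% of control, and replicate 1 is the rightmost knockdown library in 31 of the 46 genes.

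Knockdown replicate 1 was the highest of the 4 knockdown libraries in 31 of the 46 genes. The share of all tested genes in which it was the highest was not computed. Without knockdown replicate 1, 29 members fell and 0 rose (0 at an unadjusted p under 0.05). Over all 11897 genes tested without it 21.5% fell and 21.2% rose. The 29 included all 17 called with all libraries. The other 12 were CKS1B, CKS2, NEK2, TTK, BUB1, BUB3, PTTG1, KIF23, CENPF, CDCA8, ECT2 and TOP2A, with log2 changes of -0.06 (CENPF) to -0.18 (TTK). In 11 of these 12 replicate 1 was the highest knockdown library. Choosing genes called only without it favours such genes, so this is no separate result.

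The distance of replicate 1 from replicates 2 to 4 moved with base composition. Across the 46 genes, its log2 level minus their mean had a Pearson r of -0.82 and a Spearman rho of -0.83 with the GC content of the longest coding transcript, and across 11584 tested genes r was -0.598. These are descriptions across genes of the same libraries, and genes are not independent replicates. The 46 genes had a median GC content of 42.6%, against 48.8% over the 11584 tested genes. KIF18A (GC 37.0%) was 0.29 higher on the log2 scale in replicate 1 than in replicates 2 to 4, and for CDC20, the member of the highest GC content (57.9%), this difference was -0.25. The part of base composition in the changes after knockdown was not tested. With all 8 libraries, the change between the groups had little relation to GC content in these genes (r -0.06). This r was not computed without knockdown replicate 1. With offsets corrected for the GC trend of each library, a setting chosen after seeing the data, 22 members fell and 1 rose, against 21.4% and 20.1% of all tested genes. The 1 that rose there was the cyclin CCNB1 (0.08, adjusted p 0.0202).

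**Figure D3:**
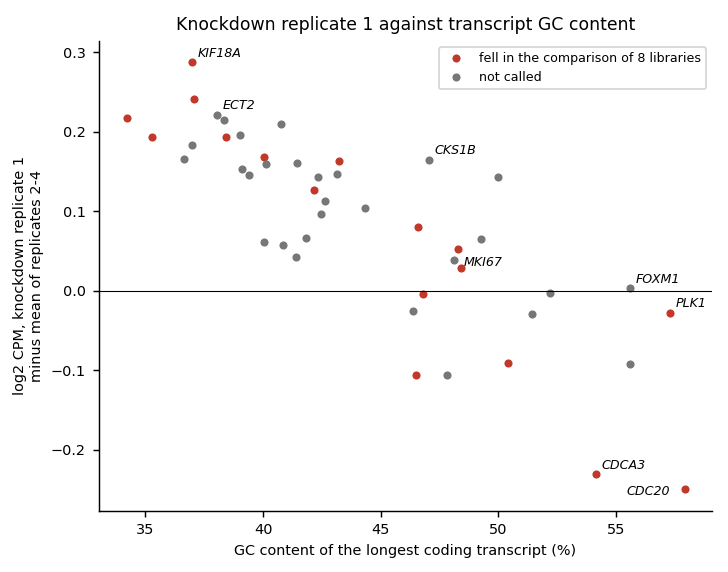
Difference in log2 CPM between knockdown replicate 1 and the mean of replicates 2 to 4 against the GC content of the longest coding transcript, for the 46 genes, with those that fell in red. Genes of the lowest GC content lie above 0, while CDC20 and CDCA3 lie lowest (Pearson r -0.82 across genes).

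In what follows gene spans are those of RefSeq on GRCh38.p14 (hg38), identifiers are those of the count table, and adjusted p is from edgeR's quasi-likelihood test. SE, on the log2 scale, is the size of the log2 change divided by the square root of that test's F statistic. Among cyclins, CDK1 and their partners, 2 of 7 fell (28.6%, where 15.6% of all tested genes did; classes this small were not compared with one another). CDC25C, the phosphatase that removes the inhibitory phosphates of CDK1 (identifier 995, chromosome 5, 138285265 to 138338355), was at 16.4, 17.4, 17.6 and 17.99 CPM in knockdown replicates 1 to 4, against 20.6, 21.3, 19.7 and 21.5 CPM in control replicates 1 to 4 (log2 change -0.26, SE 0.0631, adjusted p 0.00403). CCNA2, the cyclin of S phase and G2, was at 144, 136, 131 and 128 CPM in knockdown replicates 1 to 4, against 158, 148, 150.1 and 149 CPM in control replicates 1 to 4 (log2 change -0.17, SE 0.0418, adjusted p 0.0045). In both genes every knockdown library lay below every control. With knockdown replicates 2 to 4 alone the log2 change was -0.23 for CDC25C (adjusted p 0.00272) and -0.20 for CCNA2 (adjusted p 7.8e-07). CCNA2 overlaps EXOSC9 on the opposite strand with 6.42% of its transcript, and whether reads were counted by strand is not stated in the labels.

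The mitotic cyclin and its kinase did not pass the test, and leaving out knockdown replicate 1 brought the change of both nearer to 0. CCNB1 (identifier 891, chromosome 5, 69167150 to 69178245) was at 280.3, 258, 251 and 251 CPM in knockdown replicates 1 to 4, against 250.3, 237, 242 and 256 CPM in control replicates 1 to 4 (log2 change 0.08, SE 0.041, adjusted p 0.169). CDK1 (identifier 983, chromosome 10, 60778331 to 60794852) was at 120.5, 111, 102 and 106 CPM in knockdown replicates 1 to 4, against 105, 106, 106 and 107 CPM in control replicates 1 to 4 (log2 change 0.05, SE 0.0477, adjusted p 0.462). Knockdown replicates 1 and 2 were the highest of all 8 libraries in both genes, knockdown replicate 3 was the lowest in CDK1, and the rest lay within the control range. The log2 change without knockdown replicate 1 was 0.04 for CCNB1 (adjusted p 0.255) and 0.0042 for CDK1 (adjusted p 0.937). CCNB2 and the CDK-binding subunits CKS1B and CKS2 had log2 changes of 0.03, -0.08 and -0.04, none of them called. Without knockdown replicate 1 the values were -0.12 (adjusted p 0.00211) for CKS1B, of which 11.8% of the sequence is shared with other genes, and -0.08 (adjusted p 0.0469) for CKS2.

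Of 7 mitotic kinases 3 fell (42.9%). PLK1, the polo-like kinase of mitotic entry and exit (identifier 5347, chromosome 16, 23678889 to 23690367), was at 207, 210.2, 211 and 211 CPM in knockdown replicates 1 to 4, against 251, 239, 239 and 234 CPM in control replicates 1 to 4 (log2 change -0.20, SE 0.035, adjusted p 2.9e-04). AURKA, the spindle pole kinase (identifier 6790, chromosome 20, 56369390 to 56392215), was at 222, 210.3, 205 and 216 CPM in knockdown replicates 1 to 4, against 252, 236, 252 and 245 CPM in control replicates 1 to 4 (log2 change -0.21, SE 0.0375, adjusted p 3.9e-04). BUB1B, which encodes the checkpoint protein BUBR1, was at 178, 162, 155 and 159.7 CPM in knockdown replicates 1 to 4, against 177, 184, 186 and 172 CPM in control replicates 1 to 4 (log2 change -0.13, SE 0.0441, adjusted p 0.0271). The groups did not overlap in PLK1 and AURKA, whereas in BUB1B knockdown replicate 1 lay among the controls. Leaving out knockdown replicate 1 gave log2 changes of -0.19 for PLK1 (adjusted p 2.6e-07), -0.23 for AURKA (adjusted p 9.2e-09) and -0.17 for BUB1B (adjusted p 6.7e-06). BUB1B shares 6.8% of its transcript with BUB1B-PAK6, a gene annotated on the same strand.

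AURKB, the kinase of the chromosomal passenger complex (identifier 9212, chromosome 17, 8204731 to 8210575), was at 93.3, 101, 94.0 and 103 CPM in knockdown replicates 1 to 4, against 96.2, 99.2, 96.2 and 97.6 CPM in control replicates 1 to 4 (log2 change 0.01, SE 0.0434, adjusted p 0.886), and the groups overlapped. TTK, the MPS1 kinase that starts the spindle checkpoint, was at 99.9, 88.9, 83.9 and 86.2 CPM in knockdown replicates 1 to 4, against 97.5, 98.7, 97.6 and 98.4 CPM in control replicates 1 to 4 (log2 change -0.13, SE 0.0492, adjusted p 0.0564). Its knockdown replicates 2 to 4 all lay below the controls and replicate 1 lay above them, and DESeq2 called it (adjusted p 0.0462). With knockdown replicates 2 to 4 alone the log2 change was 0.034 for AURKB (adjusted p 0.466) and -0.18 for TTK (adjusted p 3.1e-05). BUB1 and NEK2 had log2 changes of -0.10 and -0.11 and were not called with all libraries. The difference between AURKA and AURKB in their changes was not tested.

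**Figure D4:**
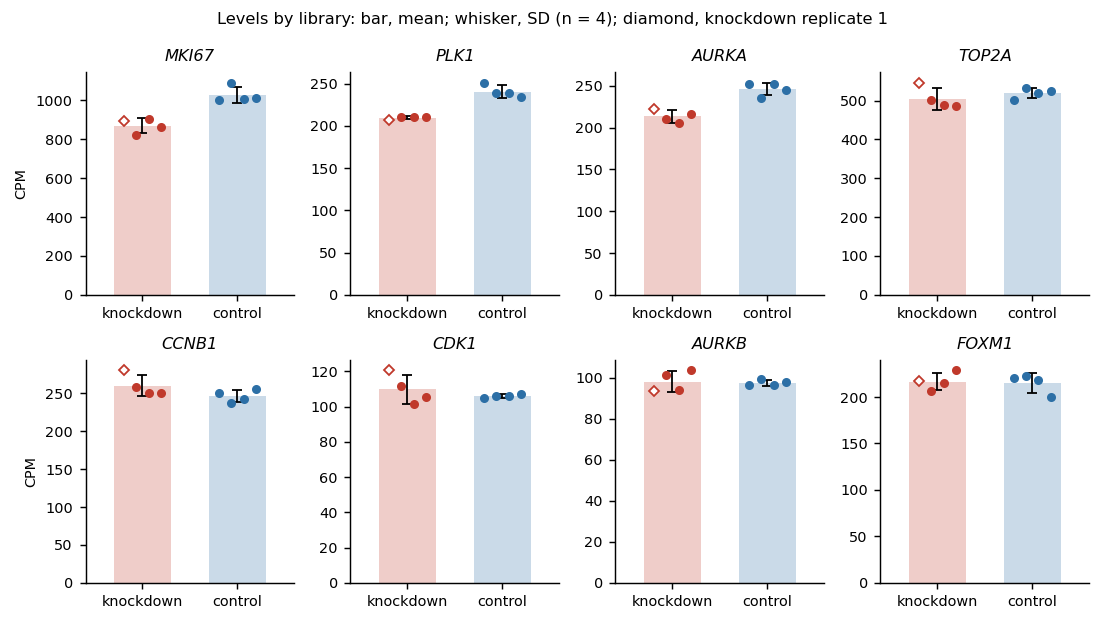
CPM of MKI67, PLK1, AURKA, TOP2A, CCNB1, CDK1, AURKB and FOXM1 by library, knockdown left and control right, with bars at the mean, whiskers of 1 SD (n = 4) and a diamond for knockdown replicate 1. All knockdown libraries lie below all controls in MKI67, PLK1 and AURKA, and the groups overlap in the other 5 genes.

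Of 5 genes of checkpoint signalling and anaphase control 1 fell (20%). CDC20, the activator of the anaphase-promoting complex, was at 192, 232, 226 and 228 CPM in knockdown replicates 1 to 4, against 241, 241, 246 and 257 CPM in control replicates 1 to 4 (log2 change -0.17, SE 0.0492, adjusted p 0.015). Its lowest library, knockdown replicate 1, lay well below the other 3, which were themselves below every control. The log2 change without knockdown replicate 1 was -0.11 for CDC20 (adjusted p 0.00164). PTTG1, the securin that guards separase, was at 176, 169, 165 and 169 CPM in knockdown replicates 1 to 4, against 192, 190.2, 177 and 172 CPM in control replicates 1 to 4 (log2 change -0.11, SE 0.0417, adjusted p 0.0603) and did not pass with all libraries. Leaving out knockdown replicate 1 gave a log2 change of -0.12 for PTTG1 (adjusted p 0.00203). The checkpoint proteins BUB3 and MAD2L1 had log2 changes of -0.07 and -0.05, and UBE2C, the ubiquitin-conjugating enzyme of the complex, had the highest value of the 46 genes, 0.08 (adjusted p 0.18).

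Of 7 kinesins 4 fell (57.1%). KIF18A, which dampens chromosome movement at the ends of kinetochore microtubules (identifier 81930, chromosome 11, 28020619 to 28108156), was at 62.9, 50.3, 52.1 and 52.3 CPM in knockdown replicates 1 to 4, against 62.4, 65.4, 65.5 and 69.6 CPM in control replicates 1 to 4 (log2 change -0.27, SE 0.0621, adjusted p 0.0025). This was the largest fall of the 46 genes, and replicate 1 was the only knockdown library that reached into the control range. KIF20A, a kinesin of the central spindle and cytokinesis, was at 167, 159, 167 and 163 CPM in knockdown replicates 1 to 4, against 188, 186, 186 and 186 CPM in control replicates 1 to 4 (log2 change -0.18, SE 0.0348, adjusted p 5.8e-04). In KIF20A the gap between the groups was wider than the range within either. With knockdown replicates 2 to 4 alone the log2 change was -0.35 for KIF18A (adjusted p 2.5e-09) and -0.19 for KIF20A (adjusted p 4.9e-07).

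KIF20B, a relative of KIF20A that also acts in cytokinesis, was at 136, 121, 115 and 116 CPM in knockdown replicates 1 to 4, against 135, 138, 129 and 141 CPM in control replicates 1 to 4 (log2 change -0.15, SE 0.0504, adjusted p 0.0279). KIF2C, the microtubule depolymerase of the centromere, was at 145, 153, 155 and 155 CPM in knockdown replicates 1 to 4, against 160.0, 165, 164 and 166 CPM in control replicates 1 to 4 (log2 change -0.11, SE 0.037, adjusted p 0.0332). Replicate 1 was the highest knockdown library in KIF20B and the lowest in KIF2C. Leaving out knockdown replicate 1 gave log2 changes of -0.21 for KIF20B (adjusted p 1.2e-06) and -0.084 for KIF2C (adjusted p 0.0168). KIF11, the motor that separates the spindle poles, KIF23 of the central spindle and the chromokinesin KIF4A had log2 changes of 0.03, -0.03 and -0.01 and were not called.

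Of 7 kinetochore and chromosomal passenger genes 1 fell (14.3%). CENPE, the kinetochore motor that carries chromosomes to the spindle equator, was at 88.2, 79.8, 76.5 and 75.2 CPM in knockdown replicates 1 to 4, against 91.5, 96.4, 87.8 and 95.8 CPM in control replicates 1 to 4 (log2 change -0.22, SE 0.0516, adjusted p 0.00357). Only replicate 1 of its knockdown libraries reached into the control range. The log2 change without knockdown replicate 1 was -0.27 for CENPE (adjusted p 1.0e-07). The centromeric histone CENPA, CENPF, the NDC80 complex subunits NDC80 and SPC25 and the passenger proteins BIRC5 (survivin) and CDCA8 (borealin) had log2 changes from -0.09 to 0.06 and did not pass.

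Of 8 spindle, midzone and cytokinesis genes 4 fell (50%). TPX2, which activates AURKA on spindle microtubules, was at 452, 452, 446 and 463 CPM in knockdown replicates 1 to 4, against 517, 501, 496 and 485 CPM in control replicates 1 to 4 (log2 change -0.14, SE 0.0322, adjusted p 0.00268). DLGAP5, which stabilizes kinetochore fibres, was at 81.2, 72.1, 69.5 and 71.5 CPM in knockdown replicates 1 to 4, against 87.1, 87.3, 82.8 and 85.1 CPM in control replicates 1 to 4 (log2 change -0.22, SE 0.0493, adjusted p 0.0024). The groups did not overlap in either gene. With knockdown replicates 2 to 4 alone the log2 change was -0.14 for TPX2 (adjusted p 2.1e-05) and -0.27 for DLGAP5 (adjusted p 5.7e-08).

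ASPM, a spindle pole protein, was at 158, 136, 141 and 125 CPM in knockdown replicates 1 to 4, against 153, 169, 156 and 168 CPM in control replicates 1 to 4 (log2 change -0.20, SE 0.0569, adjusted p 0.011). ANLN, which encodes the contractile ring protein anillin, was at 782, 705, 699 and 685 CPM in knockdown replicates 1 to 4, against 773, 807, 776 and 769 CPM in control replicates 1 to 4 (log2 change -0.12, SE 0.0388, adjusted p 0.0224). In both, replicate 1 was the highest knockdown library and the only one within the control range. Leaving out knockdown replicate 1 gave log2 changes of -0.27 for ASPM (adjusted p 6.4e-07) and -0.16 for ANLN (adjusted p 3.3e-07). NUSAP1, PRC1, ECT2 and HMMR had log2 changes of 0.03, -0.05, -0.04 and 0.07 and were not called. NUSAP1 and PRC1 share 64.9% and 62.7% of their transcript with another annotated gene on the same strand, and how such reads were assigned is not given in the sources used here.

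Among the 5 genes of chromosome structure, transcription and proliferation 2 fell (40%). MKI67, the Ki-67 antigen used to stain cycling cells (identifier 4288, chromosome 10, 128096659 to 128126423), was at 893, 820.4, 904 and 862 CPM in knockdown replicates 1 to 4, against 999.7, 1091, 1007 and 1013 CPM in control replicates 1 to 4 (log2 change -0.24, SE 0.0374, adjusted p 8.7e-05), with the smallest p of the 46. CDCA3, a substrate adaptor that triggers degradation of the WEE1 kinase, was at 70.1, 79.1, 82.4 and 85.2 CPM in knockdown replicates 1 to 4, against 87.9, 96.0, 95.2 and 93.3 CPM in control replicates 1 to 4 (log2 change -0.23, SE 0.0541, adjusted p 0.00309). The groups did not overlap in either, and 15.7% of the CDCA3 transcript is shared with GNB3 on the opposite strand. The log2 change without knockdown replicate 1 was -0.25 for MKI67 (adjusted p 1.0e-07) and -0.18 for CDCA3 (adjusted p 1.2e-04).

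TOP2A, topoisomerase II alpha (identifier 7153, chromosome 17, 40388525 to 40417896), was at 546, 502, 488 and 485 CPM in knockdown replicates 1 to 4, against 501, 531, 519 and 524 CPM in control replicates 1 to 4 (log2 change -0.04, SE 0.0386, adjusted p 0.483). FOXM1, the transcription factor of G2/M genes (identifier 2305, chromosome 12, 2857680 to 2877174), was at 217, 207, 215 and 229 CPM in knockdown replicates 1 to 4, against 221, 222, 218 and 199.96 CPM in control replicates 1 to 4 (log2 change 0.01, SE 0.0419, adjusted p 0.881). Of the FOXM1 transcript 18.2% is shared with ITFG2 on the opposite strand. Neither was called with all libraries, TOP2A was without knockdown replicate 1, and the 2 groups overlapped in both genes. Leaving out knockdown replicate 1 gave log2 changes of -0.077 for TOP2A (adjusted p 0.0126) and 0.011 for FOXM1 (adjusted p 0.822). The condensin subunit NCAPG, with 33.2% of its transcript shared with other genes, had a log2 change of 0.02.

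**Figure D5:**
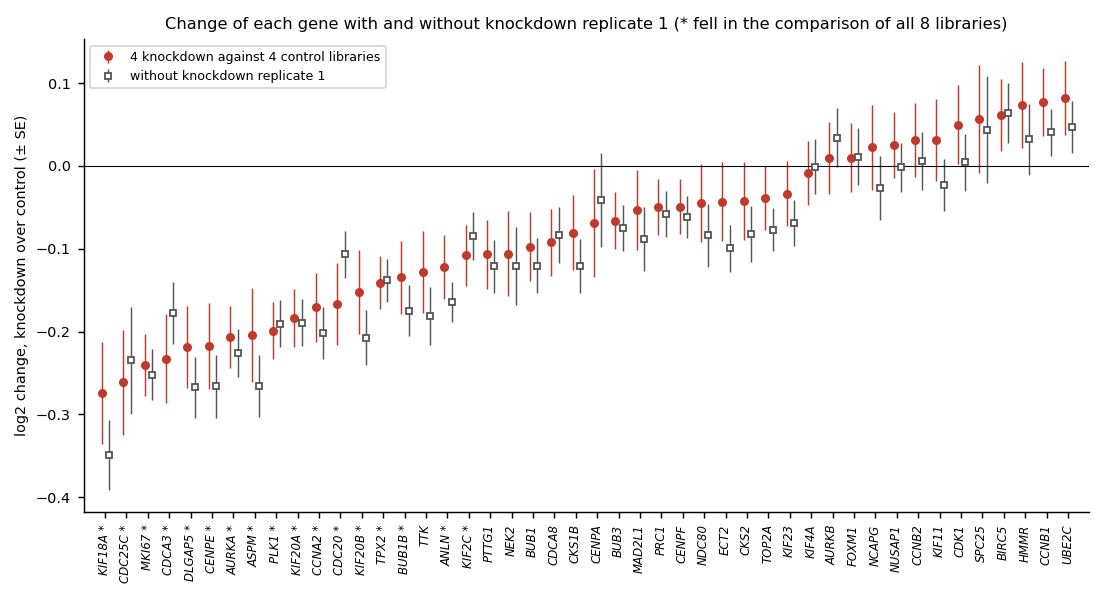
Log2 change (knockdown over control) with its SE for the 46 genes, ordered by the change with all 8 libraries (circles), and the same without knockdown replicate 1 (squares). Asterisks mark the 17 genes that fell. Values run from -0.27 for KIF18A to 0.08 for UBE2C, and for most genes the square lies below the circle.

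The call held without any 1 of the 8 libraries in 11 of the 17 genes, which were CCNA2, CDC25C, PLK1, AURKA, KIF18A, KIF20A, CENPE, TPX2, DLGAP5, MKI67 and CDCA3. CDC20 lost it without control replicate 4 (adjusted p 0.0623) and ASPM without control replicate 2 (0.0507). KIF2C lost it without knockdown replicate 2 or control replicate 2, 3 or 4 (0.0642 to 0.0965), and ANLN without knockdown replicate 2, 3 or 4 or control replicate 2 or 3 (0.0523 to 0.091). BUB1B lost it without knockdown replicate 2, 3 or 4 or control replicate 1, 2 or 3 (0.0532 to 0.0985). KIF20B lost it without knockdown replicate 2, 3 or 4 or control replicate 1, 2 or 4 (0.0628 to 0.0991).

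Per kilobase of gene length, which allows levels of different genes to be compared, the members spanned a wide range. CKS2 was highest at 206 ± 14.1 FPKM in knockdown libraries and 209 ± 8.72 FPKM in controls (SD, n = 4 each), followed by PTTG1 and CKS1B at control means of 188 and 172 FPKM. The lowest were CDC25C at 8.84 ± 0.322 FPKM in knockdown libraries and 10.5 ± 0.412 FPKM in controls and CENPE at 9.42 ± 0.719 FPKM in knockdown libraries and 10.8 ± 0.476 FPKM in controls (SD, n = 4 each), whose levels in controls lay within 1 SD of each other. These means include knockdown replicate 1. The median control level of the 46 genes was 47.7 FPKM. Genes that fell were found both among the high levels, such as ANLN (149 FPKM in knockdown libraries and 160.3 FPKM in controls), and among the low ones.

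Other genes of mitosis and its control, 143 in 6 lists outside the 46, were read from the same fit, and their counts stand beside the 15.6% of all tested genes that fell and the 15.0% that rose. Up to 3 genes of each list are named by smallest p, and the others named were chosen after their values were seen. The values of these genes are with all libraries, and the counts also without knockdown replicate 1. Over all genes, 21.5% fell and 21.2% rose without knockdown replicate 1, and 21.4% and 20.1% with GC-corrected offsets. Counts in those settings are to be read beside these shares. Of 36 other spindle and cytokinesis genes 13 fell and 0 rose (1 had an unadjusted p under 0.05 in that direction, and DESeq2 called 0), with a median log2 change of -0.09. Citron kinase CIT, needed for the end of cytokinesis, was at 119.8 ± 5.04 CPM in knockdown libraries and 147 ± 2.66 CPM in controls (SD, n = 4 each; log2 change -0.30, adjusted p 1.9e-05). The tubulin TUBA1B was at 2259.8 ± 136 CPM in knockdown libraries and 2702 ± 57.2 CPM in controls (SD, n = 4 each; log2 change -0.26, adjusted p 4.6e-05). The kinesin KIF18B was at 96.6 ± 4.79 CPM in knockdown libraries and 119 ± 4.79 CPM in controls (SD, n = 4 each; log2 change -0.30, adjusted p 6.2e-05). Without knockdown replicate 1, 19 genes of this list fell and 1 rose.

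Of 35 other kinetochore and checkpoint genes 9 fell and 0 rose (2 had an unadjusted p under 0.05 in that direction, and DESeq2 called 0), with a median of -0.07. HJURP, the chaperone that deposits CENPA, was at 133 ± 3.68 CPM in knockdown libraries and 151 ± 3.49 CPM in controls (SD, n = 4 each; log2 change -0.18, adjusted p 0.00127). The checkpoint ATPase TRIP13 and the histone H3 kinase HASPIN had log2 changes of -0.15 and -0.21 (adjusted p 0.00868 and 0.0103). Without knockdown replicate 1, 15 fell and 1 rose, and 4 fell without control replicate 1.

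Of 20 cohesin and condensin genes 4 fell and 0 rose (2 had an unadjusted p under 0.05 in that direction, and DESeq2 called 0), with a median of 0.006. They were the cohesin protector SGO2 (-0.24, adjusted p 0.00183), the condensin subunit NCAPH (-0.17, 0.00365), the cohesin ring gene SMC1A (-0.12, 0.0113) and PDS5B, which regulates cohesin (-0.15, 0.0194). The last lost its call without knockdown replicate 2 or 4 or control replicate 1, 2 or 4 (adjusted p up to 0.0756). Without knockdown replicate 1, 6 genes of this list fell, and without knockdown replicate 4, 1 rose. Of 19 genes of the anaphase-promoting complex and its partners 3 fell and 1 rose, with a median of -0.04. The subunits ANAPC13, ANAPC5 and ANAPC7 had log2 changes of -0.31, -0.17 and -0.20 (adjusted p 8.8e-05, 0.00147 and 0.00197), while the RING subunit ANAPC11 had 0.24 (0.0452) and lost its call without knockdown replicate 1, 2 or 3 or control replicate 1 or 2 (up to 0.187). Without knockdown replicate 1, 5 genes of this list fell and 1 other than ANAPC11 rose, and with GC-corrected offsets 6 fell and 0 rose.

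Of 19 genes of mitotic entry control 3 fell and 2 rose, with a median of -0.05. Cyclin F (CCNF) was at 109 ± 5.83 CPM in knockdown libraries and 119.7 ± 1.47 CPM in controls (SD, n = 4 each; log2 change -0.14, adjusted p 0.017). CDK7, the kinase that activates CDK1, was at 42.1 ± 2.17 CPM in knockdown libraries and 37.4 ± 0.944 CPM in controls (SD, n = 4 each; log2 change 0.17, adjusted p 0.0187). CDC25B, a phosphatase that activates CDK1, had a log2 change of -0.11 (adjusted p 0.0315), and WEE1, the kinase that inhibits CDK1, one of 0.14 (0.0339), while PPP2R2A, the other that fell, had -0.11 (0.0426). Each call of this list was lost in at least 1 of the fits that left out a single library. CCNF lost its call without control replicate 3 (adjusted p 0.0584) or 2, CDK7 without control replicate 2 (0.0575), WEE1 without knockdown replicate 4 or control replicate 1, 2 or 4 (up to 0.112), CDC25B without any 1 of 6 libraries (all but knockdown replicates 1 and 4, up to 0.0897) and PPP2R2A without any 1 but knockdown replicate 1 (up to 0.145). In all, 7 genes fell without knockdown replicate 1, 1 without knockdown replicate 2 or 3 or control replicate 1 or 4, and 0 without control replicate 2 or 3. With GC-corrected offsets 6 genes fell, and with no filter or in limma 1. Of the 2 that rose, 1 remained called without knockdown replicate 4 or control replicate 1 or 4, and 0 without control replicate 2.

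Of 14 genes of the DREAM and MuvB complexes 3 rose and 1 fell, with a median of 0.03. MYBL2, which encodes the B-MYB protein that joins MuvB at G2/M promoters, was at 166 ± 14.1 CPM in knockdown libraries and 187 ± 4.14 CPM in controls (SD, n = 4 each; log2 change -0.18, adjusted p 0.0112). RBL1, which encodes the repressor p107 of the DREAM complex, was at 59.4 ± 4.73 CPM in knockdown libraries and 51.2 ± 1.23 CPM in controls (SD, n = 4 each; log2 change 0.21, adjusted p 0.00593). E2F4, its usual E2F partner, had a log2 change of 0.13 (adjusted p 0.0386), and E2F5 had 0.92 (0.0212) at mean levels of 0.831 CPM in knockdown libraries and 0.435 CPM in controls. E2F4 lost its call without any 1 of 6 libraries (all but knockdown replicate 1 and control replicate 1, adjusted p up to 0.141) and E2F5 without knockdown replicate 3 or control replicate 1 or 3 (up to 0.066). In this list 1 gene rose without knockdown replicate 3 or control replicate 3, while 3 fell without knockdown replicate 1 and 2 without control replicate 3.

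The 5 genes outside the 46 whose log2 levels ran closest to the mean log2 level of the 46 over the 8 libraries, out of 10096 candidates above 5 CPM on average, were CHORDC1 (Pearson r 0.991), TRIP13 (0.99), DLAT (0.989), PAICS (0.988) and SNAPC3 (0.988). The libraries differ by group and by the distance of knockdown replicate 1, and both enter these correlations, which are given as descriptions.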

How the data were processed

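The authors deposited raw read counts per gene and FPKM values per gene for 8 polyadenylated RNA libraries of KYSE150 cells. Per the labels' protocols and the series' design text, RNA was extracted with TRIzol, libraries were made with the VAHTS Universal V6 kit, 150 bp paired-end reads were taken on a NovaSeq instrument, and low-quality reads were removed with fastp. The genome build was hg38, per the submitters' processing notes. Aligner, counting tool, strand setting and annotation: not given in the sources used here. Deposited FPKM values are the counts scaled by library total and gene length.

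The counts were tested with edgeR 4.0.16 (TMM, filterByExpr, robust quasi-likelihood fit, Benjamini-Hochberg threshold 0.05) across 11841 of 15852 genes, 4 knockdown against 4 control libraries. Alternatives were other scalings and filters, a replicate block, each library left out, DESeq2 1.42.0, and limma 3.58.1 on log2(FPKM + 1) and log2(FPKM + 0.1). Offsets corrected for GC content were added after the data had been seen. CPM values are counts scaled by TMM-adjusted library totals. Library totals of 31178036 to 35147860 counts put 3 counts at 0.0851 to 0.0969 CPM, and this floor covers counting error only.

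The 46 genes and the other lists were chosen with earlier results of these data known. The values of every library are given for 8 fixed genes and for 16 further genes with the smallest p-values, and for BOLA3. Outside the 46, 5 genes were named by likeness. Transcript GC content and shared sequence (windows of 75 bases every 25) are from GENCODE transcripts, and promoters from RefSeq. R 4.3.3 and Python 3.11.15 were used.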

Additional observations from a re-analysis of the deposited data

Results flagged for a closer look

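In 94 groups of 4 libraries (46 genes and BOLA3, in knockdown and control libraries), the highest or lowest library stood far from its nearest neighbour, relative to the range of its group, in 9. Chance gives about 1 in 20 for a single group. The groups come from the same 8 libraries and are not independent, so the count of 9 was not tested against it. In 5 of them knockdown replicate 1 was high, at 139 CPM for CKS1B, 208 CPM for KIF23, 62.9 CPM for KIF18A, 215 CPM for NUSAP1 and 60.6 CPM for HMMR. In 2 it was low, at 207 CPM for PLK1 (210 to 211 CPM in knockdown replicates 2 to 4, a small difference) and 192 CPM for CDC20. The other 2 were control libraries, replicate 1 for KIF20A (188 CPM) and replicate 2 for MKI67 (1091 CPM). Without these control libraries KIF20A and MKI67 were still called.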

How the results depend on the processing

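Of the 17 members that fell, 10 were called in all 20 fits. RLE or upper quartile scaling, a minimum of 1 CPM in 4 libraries and no filter gave 16 or 17, DESeq2 18, limma on log2(FPKM + 1) or log2(FPKM + 0.1) 12, and limma with no filter 11. Leaving out 1 library gave 12 (without control replicate 2) to 29 (without knockdown replicate 1). With GC-corrected offsets, added after seeing the data, 22 members fell and 1 rose, and the counts were also 22 and 1 with the same correction and no knockdown replicate 1. Over all genes, leaving out 1 library gave 1409 to 2526 genes that rose and 1419 to 2555 genes that fell. In the main fit 1853 genes fell, with other scalings and filters 1724 to 1858, and in DESeq2 1925. Limma gave 1385 genes that fell on log2(FPKM + 1), 1384 on log2(FPKM + 0.1) and 1339 with no filter. GC-corrected offsets gave 2538 that fell and 2384 that rose, and 2582 and 2418 without knockdown replicate 1 as well. In the other lists, GC-corrected offsets gave 6 mitotic entry genes that fell and, of the anaphase-promoting complex list, 6 that fell and 0 that rose (6 and 5 falls, and 0 rises in the second list, without knockdown replicate 1 as well), no filter and all 3 limma fits gave 1 mitotic entry gene that fell, and limma with no filter gave 0 DREAM and MuvB genes that fell. No filter, and limma with no filter, gave 0 rises in the anaphase-promoting list. Of the 3 lists with 0 rises, GC correction gave 2 for cohesin and condensin, 2 for kinetochore and 1 for spindle genes (3, 1 and 2 without knockdown replicate 1 as well), and limma gave 1 for kinetochore genes in each fit and, with no filter, 1 for cohesin and condensin. Members whose log2 change took the other sign in some setting were called in neither, and the cause was not tested. Leaving out 1 library gave -0.017 to 0.034 for AURKB, -0.023 to 0.065 for KIF11, -0.024 to 0.0076 for KIF4A, -0.0017 to 0.048 for NUSAP1, -0.027 to 0.057 for NCAPG and -0.024 to 0.032 for FOXM1. With GC-corrected offsets and no knockdown replicate 1 KIF4A was at 0.0087 and FOXM1 at -0.020, and in limma KIF4A was at 0.011 with either pseudocount and with no filter. Same-numbered knockdown and control libraries did not deviate together (r -0.0444 to 0.0876, against -0.0701 to 0.0691 for other numbers). This cannot tell whether the numbers pair the samples, because pairs that share little would look the same. With the replicate block 17 members fell and 0 rose, among 1736 genes that fell and 1656 genes that rose. The least abundant member averaged 19.1 CPM, far above the floor of 3 counts.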
